A study of Mus musculus with 96 samples.

Results

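The diet effect on messenger RNA was compared between 2 fat depots of the mouse abdomen, perirenal fat and mesenteric fat. The members were the 24 arrays of these depots, taken by their labels from the 96 arrays of a study of 8 tissues. All mice were DBA/2J, an inbred laboratory strain that carries no engineered allele in the labels. Feeding lasted 6 weeks, on either the standard breeding diet or the high-fat diet, and the animals were 12 weeks old and were fasted for 2 hours before dissection. Each of the 4 groups (perirenal fat on either diet, mesenteric fat on either diet) held 6 biological replicates. The labels give neither the sex of the animals nor the composition of the diets, and they do not say which arrays came from 1 animal, 1 day or 1 chip. The study's design text calls the pad below the kidney retroperitoneal, and the sample labels call it perirenal. Whole tissue was homogenized, so that fewer cells of a type and less RNA per cell cannot be told apart in any value below.

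White fat stores triglyceride in adipocytes, and its stroma holds macrophages, lymphocytes, endothelium and fibroblasts. Fat feeding is known to lower mRNA of lipogenic enzymes in adipocytes and, as depots enlarge, to bring macrophages that surround dying adipocytes, take up lipid and present antigen on MHC class II molecules. Perirenal fat is a discrete pad behind the peritoneum. Mesenteric fat lies along the gut, drains into the portal vein, encloses lymph nodes and adjoins the pancreas, which in mice is spread through the mesentery.

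The quantity reported is a difference of differences on the log2 scale: the high-fat minus standard-diet effect in perirenal fat, minus the same effect in mesenteric fat. A positive value says that the effect lay higher in perirenal fat. The value after ± is its standard error with n = 6 arrays per group. A feature (a gene, or a probe without a symbol) was called where limma's adjusted p was under 0.05. Each depot was normalized alone, so levels are read within a depot unless joint normalization is named. Precision is limited by how many arrays there are, and log2 intensities near 6.7 or 6.8, the 1st percentile of feature means in either depot, lie at the bottom of the scale. The highest normalized value was 15.98 in either depot, so changes of probes that read above about 15 may be compressed, and differences that involve values near either end of the scale are estimates on this scale and not exact folds.

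The arrays did not all have the same brightness, read as the upper quartile over the median of the raw signal. In perirenal fat it was 2.07 to 2.17 on the standard diet, 2.41 and 2.58 on high-fat replicates 1 and 2, and 1.57 to 1.66 on high-fat replicates 3 to 6. In mesenteric fat it was 1.98 and 2.24 on high-fat replicates 1 and 2 and 1.34 to 1.59 on replicates 3 to 6. On the mesenteric standard-diet arrays it was 1.73 to 1.85, except for replicate 1 at 2.42 and replicate 5 at 2.49. The same high-fat replicate numbers were thus dim in both depots, and counts with a term for these dim arrays are given beside some of the lists below. With this term each high-fat mean rests on replicates 1 and 2. Among the genes named below, 28 of 40 higher calls and 2 of 30 lower calls were also called with it. Most lower calls below therefore carry that limit, also where no such count is given. White adipocyte markers had a mean log2 level, with both depots normalized together, of 12.63 to 13.2 in perirenal and 11.67 to 12.43 in mesenteric arrays. Kidney markers stood at 6.93 to 8.26 in perirenal arrays and at 6.97 to 7.69 in mesenteric arrays.

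The effect of the high-fat diet was higher in perirenal than in mesenteric fat for all 7 MHC class II genes tested and 13 of 17 cell cycle genes. It was also higher for 10 of 15 macrophage markers and 7 of 17 genes of lipid-associated macrophages and the lysosome, against 4.49% of all features. Of 16 fatty acid synthesis genes 9 fell in perirenal and 7 in mesenteric fat, against 13.6% and 0.5% of all features. None of the 16 had a difference that passed the test. Of 17183 features tested, 1027 differed between the depots in their diet effect, which is 5.98% of them. For 771 (4.49%) the effect was higher in perirenal fat, with a median difference of 0.84 among them. For 256 (1.49%) it was lower, with a median of -0.65. Of the 771, 722 rose in perirenal fat and were not called in mesenteric fat, and 6 rose in both. In 7 the call came from a fall in mesenteric fat, and 36 were called within neither depot. Of the 256, 219 fell in perirenal fat and were not called in mesenteric fat, 6 fell in both, 6 rose in mesenteric fat without a perirenal call, 2 rose in both, 1 fell in perirenal and rose in mesenteric fat, and 22 were called within neither depot. The median difference over all features was -0.01.

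Counted within each depot, 2359 features rose (13.7%) and 2334 fell (13.6%) in perirenal fat, against 57 (0.332%) and 86 (0.5%) in mesenteric fat. The difference between these totals is not itself the test, since 956 of the 4693 perirenal calls were also called as different between the depots. All 6 high-fat arrays lay above all 6 standard-diet arrays for 6.76% of features in perirenal fat and for 0.553% in mesenteric fat, and below them for 5.65% and 1.46%. The total of 1027 became 237 with a term for high-fat replicates 3 to 6, of which 226 (1.32% of features) were higher and 11 (0.064%) lower. Under median scaling in place of quantile normalization it became 82, of which 74 (0.431%) were higher and 8 (0.0466%) lower. List counts given below under these settings are to be set against these shares.

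**Figure D1:**
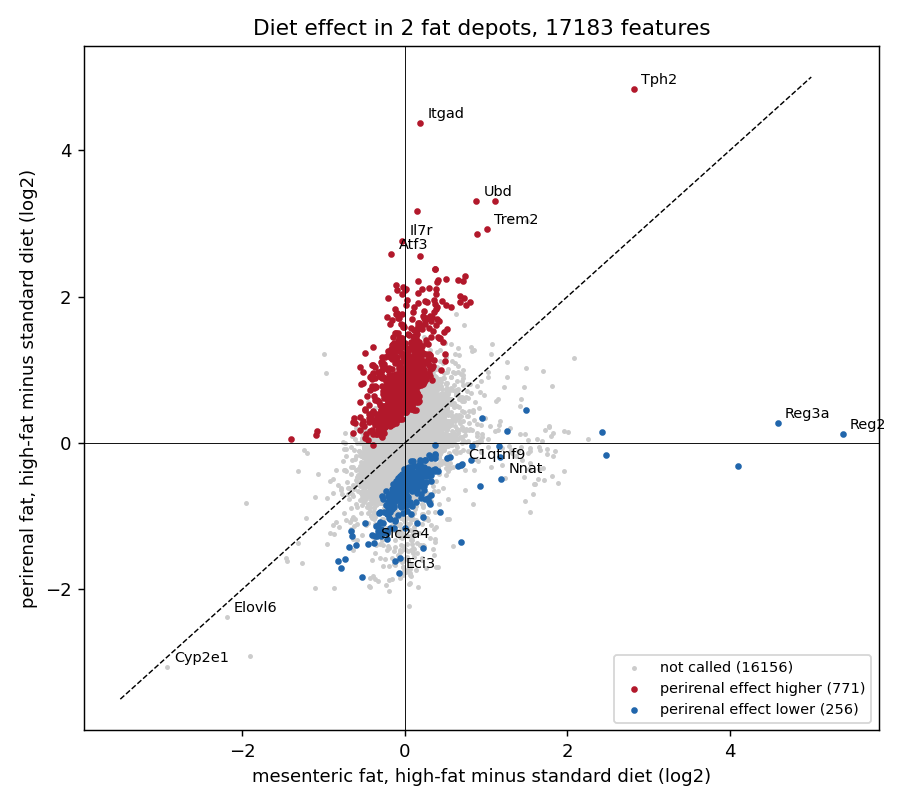
Each point is 1 of 17183 features, with its log2 diet effect (high-fat minus standard diet, 6 arrays per group) in mesenteric fat on the horizontal axis and in perirenal fat on the vertical axis; the dashed line marks equal effects. The 771 red points lie above the line and mostly near 0 on the mesenteric axis, the 256 blue points lie below it, and Cyp2e1 and Elovl6 lie near the line in the lower left.

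Itgad, the integrin alpha D chain of a leukocyte adhesion receptor, had the highest positive estimate among called genes with a symbol. Its perirenal log2 intensity was 6.78, 7.06 and 7.99 (lowest, median, highest) on the standard diet and 11.12, 11.61 and 11.91 on the high-fat diet. In mesenteric fat it was 6.72, 6.93 and 7.04, against 6.83, 7.14 and 7.35. The perirenal groups were far apart, while the mesenteric groups overlapped near the bottom of the scale. The difference between depots was 4.18 ± 0.23 (limma adjusted p = 4.62e-11), and it ranged from 3.37 to 4.5 over the alternatives. With 3 of the 4 groups near the bottom of the scale, its size is not an exact fold.

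Trem2, a lipid receptor of macrophages, rose in both depots. Perirenal values were 9.07, 10.18 and 10.36 on the standard diet and 12.41, 12.85 and 13.2 on the high-fat diet. Mesenteric values were 7.6, 7.97 and 8.45, against 8.7, 8.89 and 9.62. Neither depot had overlapping groups. The perirenal effect of 2.92 ± 0.22 exceeded the mesenteric effect of 1.01 ± 0.2 by 1.91 ± 0.32 (limma adjusted p = 0.000326). The mesenteric call of Trem2 was lost without any 1 of standard-diet replicates 2, 3, 4 and 6 or high-fat replicates 3, 5 and 6.

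Of 15 macrophage markers tested, 10 had a higher effect in perirenal fat, against 4.49% of all features, and none a lower one, with a median difference of 0.88 against -0.01 over all features. The median effect was 1 in perirenal fat, where 12 rose (against 13.7% of all features), and 0.17 in mesenteric fat, where none was called by limma. Under median scaling that mesenteric median was -0.29 and the median of all mesenteric effects moved from -0.02 to -0.3. Itgax, the integrin CD11c, differed by 2.04 ± 0.23, Mpeg1, a pore-forming protein of phagocytes, by 2.37 ± 0.34, and Tyrobp, the signalling adaptor of Trem2, by 1.71 ± 0.24. Msr1, a scavenger receptor for modified lipoproteins, differed by 1.03 ± 0.19. Its perirenal effect of 0.64 was called and its mesenteric effect of -0.38 was not. On mesenteric high-fat arrays Msr1 read 7.24 and 7.26 on replicates 1 and 2. It read 6.35 to 6.77 on the dim replicates 3 to 6, at the bottom of the scale, so its difference is not an exact fold. With a term for the dim arrays 4 of the 15 were called, and under median scaling 3.

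Of 17 genes of lipid-associated macrophages and the lysosome, 7 had a higher effect in perirenal fat, against 4.49% of all features. None had a lower one (median difference 0.68). Gpnmb, a lysosomal membrane glycoprotein of lipid-laden macrophages, differed by 1.98 ± 0.38 and Cd63, a tetraspanin of late endosomes, by 0.68 ± 0.12. In perirenal fat Gpnmb read 7.84 to 9.18 on the standard diet and 11.29 to 11.88 on the high-fat diet, and in mesenteric fat 6.7 to 8.07 against 7.49 to 8.93. Its mesenteric groups overlapped and that effect, 0.89 ± 0.29, was not called. With a term for the dim arrays 3 of the 17 were called, and under median scaling 4.

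All 7 MHC class II genes tested had a higher effect in perirenal fat (median difference 1.4; median effects 1.36 in perirenal and -0.03 in mesenteric fat). H2-Ab1, a beta chain of the class II dimer, read 11.01, 11.86 and 12.56 in perirenal fat on the standard diet and 13.39, 13.68 and 13.7 on the high-fat diet. In mesenteric fat it read 11.88, 12.63 and 13.2, against 12.33, 12.71 and 13.21. The perirenal groups did not overlap and the mesenteric groups lay on top of each other, a difference of 1.69 ± 0.32 (limma adjusted p = 0.00123). Ciita, the transactivator that switches on class II genes, differed by 1.5 ± 0.26, H2-DMa, which helps load peptides, by 1.34 ± 0.22, and H2-Eb1, the other beta chain measured, by 1.46 ± 0.28. With a term for the dim arrays 5 of the 7 were called. Under median scaling none was called by limma, with H2-DMa at 1.52 (adjusted p = 0.222).

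**Figure D2:**
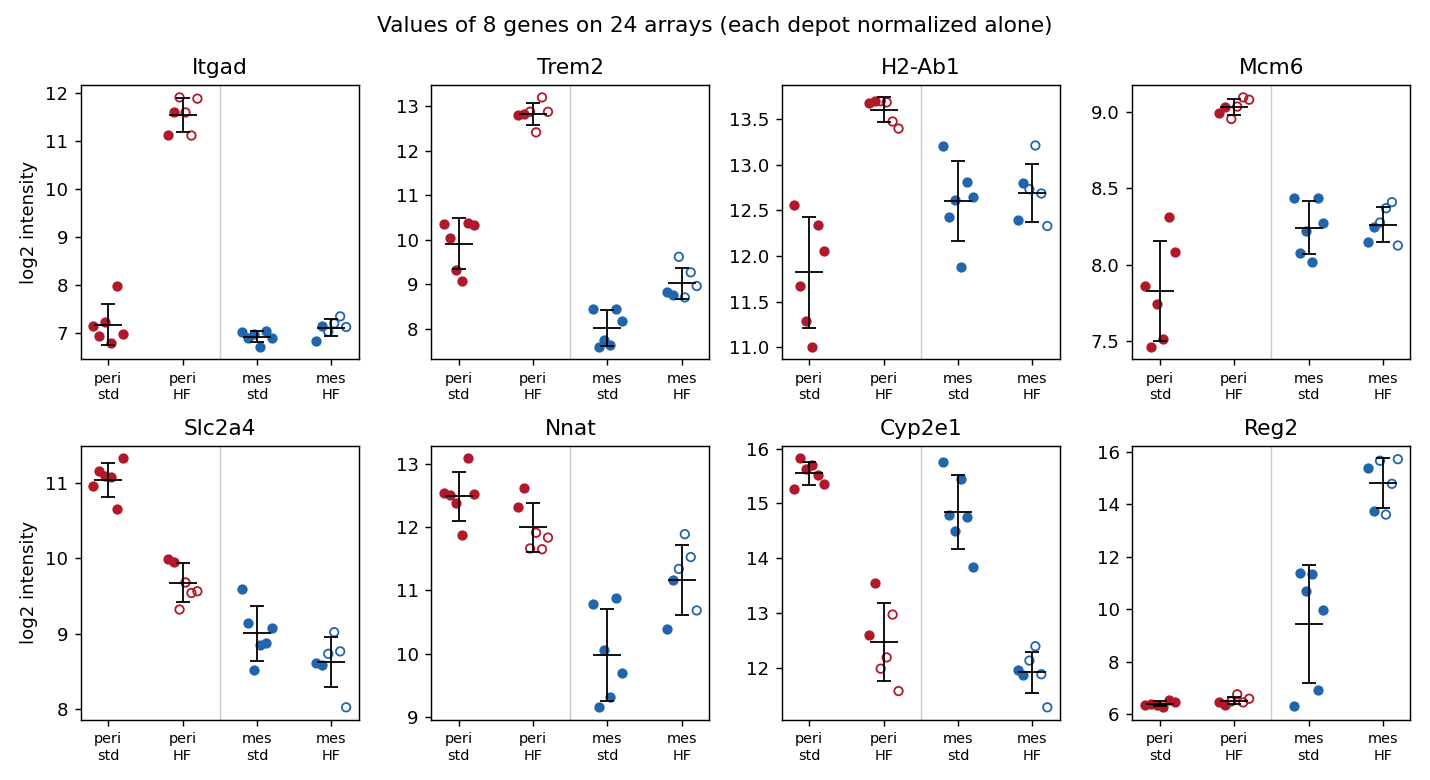
Log2 intensity of 8 genes on the 24 arrays, by depot (perirenal red, mesenteric blue) and diet (std, standard; HF, high-fat); bars are the mean and SD of 6 arrays, open circles are high-fat replicates 3 to 6, and each depot was normalized alone so that heights are not compared across the vertical line. Itgad, H2-Ab1 and Mcm6 separate by diet in perirenal fat and overlap in mesenteric fat, Cyp2e1 falls in both, and Reg2 is near the bottom of the scale in perirenal fat.

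On standard-diet arrays of both depots normalized together, 4 of the 7 MHC class II genes had all 6 mesenteric values above all 6 perirenal values, as had 8 of 8 T and NK cell genes and 11 of 11 B cell and lymph node genes, against 10.8% of all features. The mean log2 level of the class II list was 10.29 to 11.34 in perirenal fat on the standard diet, 11.95 to 12.33 in perirenal fat on the high-fat diet, and 11.58 to 12.53 in mesenteric fat on the standard diet. The last 2 ranges overlap, and for 3 of the 7 genes the standard-diet mesenteric mean was at or above the high-fat perirenal mean, against 49.4% of all features. The B cell list stood at 7.38 to 7.84 in all perirenal arrays and at 10.52 to 11.29 in all mesenteric arrays. Among single genes Cd3d, a chain of the T cell receptor complex, read 7.43 to 8.29 in perirenal and 12.05 to 13.47 in mesenteric arrays. The part of these lymphoid transcripts in the mesenteric diet effect was not tested.

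In the macrophage list 2 of 15 genes, and in the lysosomal list none of 17, had this order. The macrophage list's mean level on standard-diet arrays was 9.84 to 10.52 in perirenal and 10 to 10.4 in mesenteric fat, and high-fat perirenal arrays read 10.85 to 11.54. Itgad, Itgax and Trem2 had standard-diet means of 7.1, 7.4 and 9.63 in perirenal fat and of 6.99, 7.5 and 8.17 in mesenteric fat. Their high-fat perirenal means of 11.18, 9.43 and 12.43 lay above every mesenteric value of the same gene. Il7r, the interleukin 7 receptor of lymphocytes, was unlike them. It differed by 2.79 ± 0.26 between depots, but its high-fat perirenal values of 9.94 to 10.46 lay within the 9.9 to 10.72 of standard-diet mesenteric arrays.

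**Figure D3:**
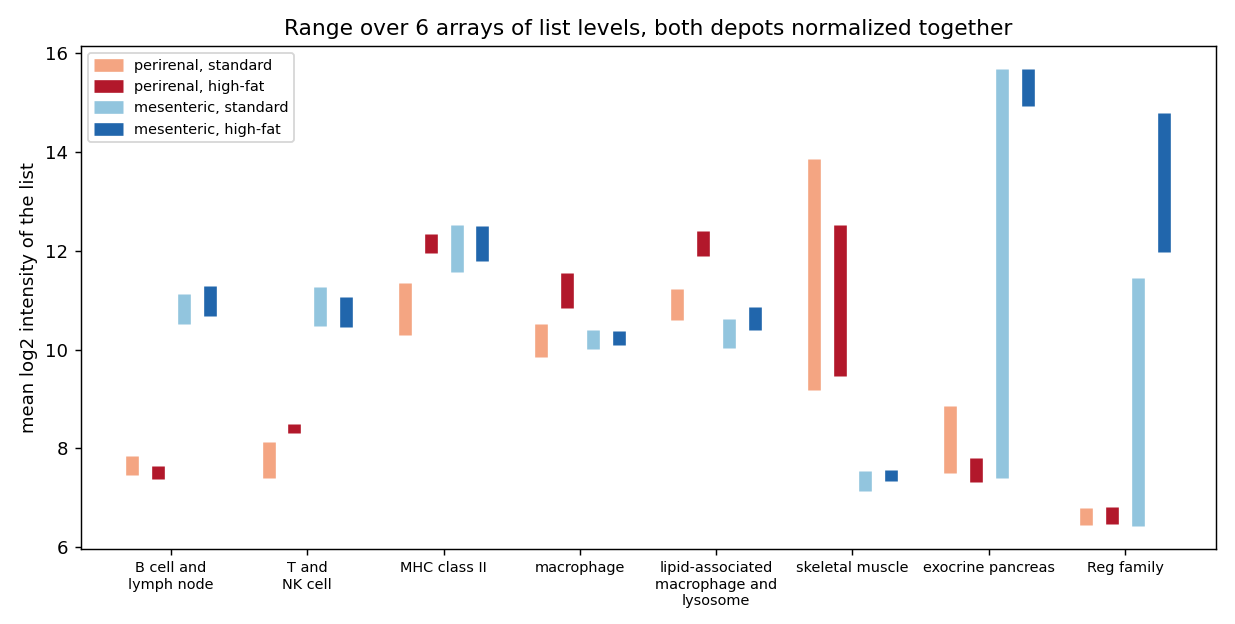
Bars span the lowest to the highest of 6 arrays in the mean log2 intensity of 8 gene lists, with both depots normalized together, for each depot and diet. B cell and T cell lists are high in mesenteric arrays on both diets, the macrophage and lysosome lists are highest in perirenal arrays on the high-fat diet, muscle transcripts vary within perirenal fat, and pancreatic and Reg transcripts vary within mesenteric fat.

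Chemokines draw leukocytes. Of 17 such genes tested, 7 had a higher effect in perirenal fat, against 4.49% of all features, and none a lower one (median difference 0.44). Ccl2, the monocyte attractant, rose from 7.93 to 8.88 on the standard diet to 9.7 to 10.73 on the high-fat diet in perirenal fat, and its mesenteric ranges of 7.05 to 7.83 and 7.56 to 8.17 overlapped. The difference was 1.64 ± 0.28 (limma adjusted p = 0.000528). Ccl9, another myeloid chemokine of mice, differed by 1.05 ± 0.21, and Cx3cr1, the fractalkine receptor, by 1.21 ± 0.25. The dim-array term left 3 of the 17 called, where 1.32% of all features were called higher and 0.064% lower. Median scaling left none, with Ccl2 at 1.72 (limma adjusted p = 0.0857).

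Of 17 cytokine and acute-phase genes 4 had a higher effect in perirenal fat, against 4.49% of all features. Among them was Lcn2, an iron-binding lipocalin of the acute phase. Lcn2 rose by 3.3 ± 0.17 in perirenal and by 1.11 ± 0.21 in mesenteric fat, a difference of 2.19 ± 0.29 (limma adjusted p = 2.42e-05). Its ranges did not overlap by diet in either depot, from 9.17 to 10.07 up to 12.43 to 13.43 in perirenal and from 8.74 to 9.33 up to 9.66 to 10.83 in mesenteric fat. Ptx3, a pentraxin of innate defence, differed by 1.59 ± 0.26 and Il1rn, the interleukin 1 receptor antagonist, by 0.81 ± 0.17. Their mesenteric values, 6.33 to 7.59 and 6.68 to 7.4, lay near the bottom of the scale. Of 11 interferon response genes Ubd, a ubiquitin-like modifier induced by cytokines, was called, at 2.42 ± 0.39 (adjusted p = 0.000213), and the list's median was -0.05. That median turned to 0.09 under median scaling.

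Other genes were among the largest positive differences. Rgs1, which damps G protein signalling in leukocytes, differed by 3.03 ± 0.29 and Atf3, a stress-induced transcription factor and the 1 gene called of 13 in the endoplasmic reticulum stress list, by 2.75 ± 0.29. Atf3 read 7.21 to 8.26 and 9.93 to 11.06 in perirenal fat and 6.58 to 7.62 and 6.55 to 7.3 in mesenteric fat. The B cell and myeloid receptor Cd72 differed by 2.26 ± 0.3, Slc37a2, a sugar-phosphate transporter of macrophages, by 2.2 ± 0.28, the short-chain dehydrogenase Dhrs9 by 2.18 ± 0.18, Glipr1 by 2.15 ± 0.23, the adhesion molecule Cadm1 by 2.09 ± 0.22 and the DNA translocase Zranb3 by 2.08 ± 0.33. All of these had high-fat perirenal arrays wholly above the standard-diet arrays and overlapping mesenteric arrays. Tph2, a tryptophan hydroxylase of serotonin synthesis, rose in both depots, from 8.21 to 9.27 up to 13.2 to 13.97 in perirenal and from 6.25 to 7.25 up to 8.27 to 10.84 in mesenteric fat. Its difference of 2.02 ± 0.48 (limma adjusted p = 0.0104) was not called with a background offset of 16, with both depots normalized together, or without perirenal standard-diet replicates 3, 4 and 6 (adjusted p up to 0.0742).

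Cell cycle and DNA replication genes held the largest number of calls among the 38 lists. Of 17 tested, 13 (against 4.49% of all features) had a higher effect in perirenal fat and none a lower one, with a median difference of 0.78. The median effect was 0.93 in perirenal fat, where 16 rose (against 13.7% of all features), and 0.03 in mesenteric fat, where none was called. Mcm6, a subunit of the helicase that opens replication origins, read 7.47, 7.8 and 8.31 on the standard diet and 8.95, 9.03 and 9.09 on the high-fat diet in perirenal fat, and 8.02 to 8.44 against 8.13 to 8.41 in mesenteric fat. The perirenal groups were apart and the mesenteric groups overlapped, a difference of 1.18 ± 0.16 (limma adjusted p = 3.57e-05). Tk1, the thymidine kinase of S phase, differed by 1.92 ± 0.26, and the helicase subunits Mcm5 and Mcm2 by 1.32 ± 0.21 and 0.92 ± 0.16. On standard-diet arrays normalized together, 9 of the 17 had all mesenteric values above all perirenal values, against 10.8% of all features. With a term for the dim arrays 5 of the 17 were called, and under median scaling 1.

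E2F factors switch on replication genes in late G1 phase through sites with a TTTCGCGC or TTTGGCGC core. Promoters of 12 of the 13 called cell cycle genes were found in RefSeq (build GRCm38.p6), each from 250 bases before to 50 after the start. On either strand, 4 of these 12 held such a core, against 0.833% of 27025 promoters. The TTTGAA element of genes expressed in G2 and M phase was held by 4 of the 12, against 18.1% of all. Of 6 macrophage promoters found, 1 held the PU.1 core GAGGAAGT, against 3.28% of all, and none of the 4 MHC class II promoters found held it. These are matches of letters, and no binding was measured.

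The promoters of Mcm5 (chr8:75109259-75109558, plus strand) and Mcm6 (chr1:128359656-128359955, minus strand) are shown because both hold E2F cores on opposite strands that overlap. Capitals mark the cores, 5′ to 3′ on the gene's strand.
Mcm5: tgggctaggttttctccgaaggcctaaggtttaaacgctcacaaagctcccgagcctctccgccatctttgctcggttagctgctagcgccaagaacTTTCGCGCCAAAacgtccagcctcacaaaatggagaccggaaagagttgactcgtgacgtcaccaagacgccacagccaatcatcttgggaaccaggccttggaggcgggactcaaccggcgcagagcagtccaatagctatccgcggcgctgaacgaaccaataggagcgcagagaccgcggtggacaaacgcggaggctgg
Mcm6: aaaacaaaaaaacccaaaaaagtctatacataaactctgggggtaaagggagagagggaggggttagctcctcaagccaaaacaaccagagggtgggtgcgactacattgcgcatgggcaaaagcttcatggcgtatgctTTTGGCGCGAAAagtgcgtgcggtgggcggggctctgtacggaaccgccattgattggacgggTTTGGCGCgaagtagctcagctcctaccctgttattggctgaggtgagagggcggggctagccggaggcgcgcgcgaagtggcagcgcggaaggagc
In Mcm5 the overlapping cores begin at positions -153 and -149, and in Mcm6 at -110 and -106, with another core at -47. Tk1, Tyms, Rrm1, Rrm2 and Birc5 held neither of these motifs in this window.

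Extracellular matrix genes had a higher effect in perirenal fat for 4 of 24 tested, against 4.49% of all features. None had a lower one (median difference 0.25). In perirenal fat 15 of the 24 rose, against 13.7% of all features. In mesenteric fat none was called, where 0.332% of all features rose. Col1a1, a chain of type I collagen, read 12.39 to 12.72 and 13.18 to 14.01 in perirenal fat and 10.54 to 10.91 and 10.73 to 11.43 in mesenteric fat, a difference of 0.71 ± 0.17 (limma adjusted p = 0.0123). Mmp14, a membrane-bound collagenase, differed by 0.77 ± 0.18, and Timp1, an inhibitor of such enzymes, by 1.12 ± 0.29. The dim-array term left 1 of the 24 called, where 1.32% of all features were called higher, and median scaling none.

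**Figure D4:**
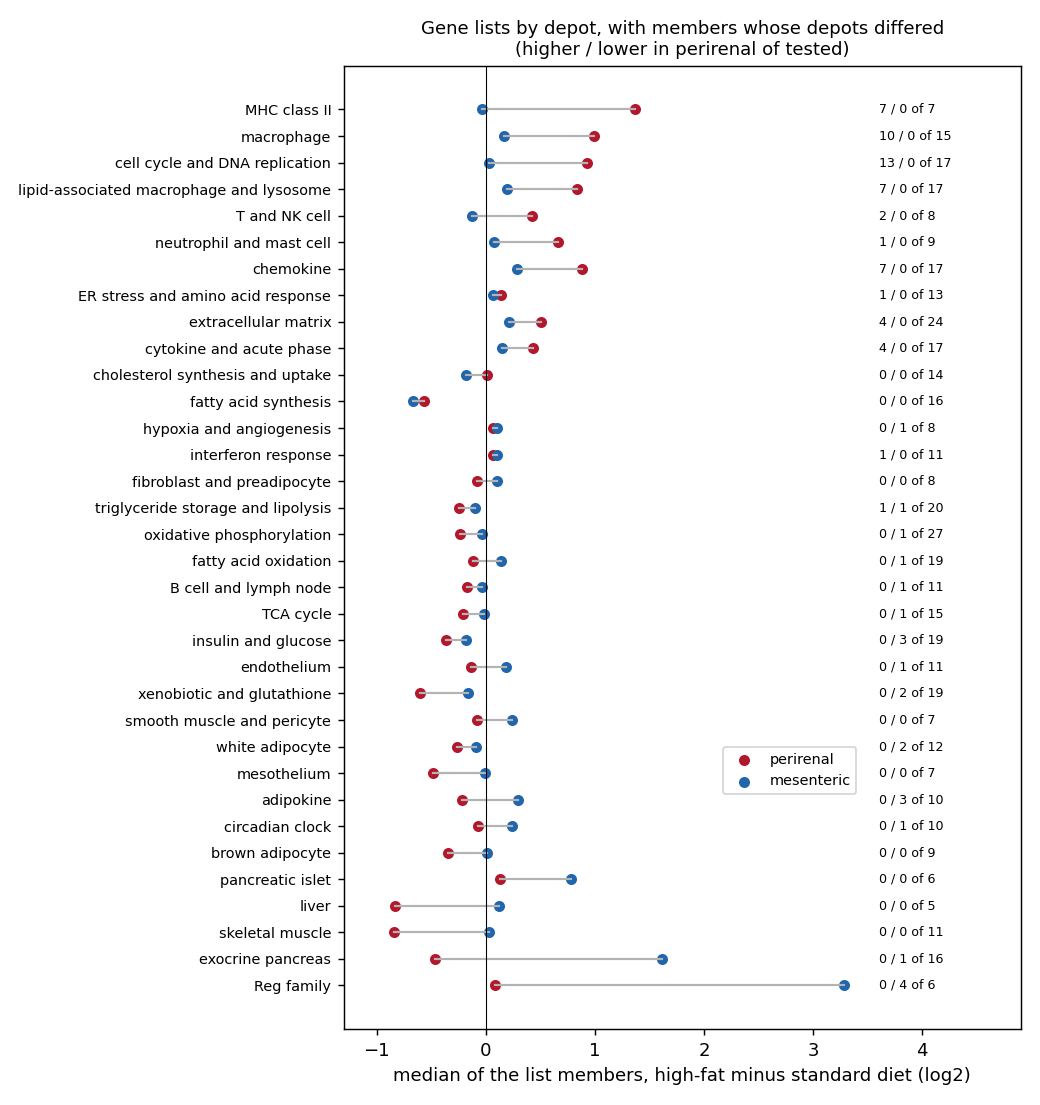
For each of the 34 gene lists with at least 5 members tested, points give the median log2 diet effect of its members in perirenal (red) and mesenteric (blue) fat; the numbers at the right give the members whose effect was higher or lower in perirenal fat, of those tested. MHC class II (7 of 7), cell cycle (13 of 17) and macrophage (10 of 15) genes lie apart at the top, fatty acid synthesis genes lie below 0 in both depots, and Reg and pancreatic genes lie apart at the bottom.

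Fatty acid synthesis did not differ between the depots for any of 16 genes at an adjusted p under 0.05. The median effect was -0.57 in perirenal fat, where 9 fell, and -0.67 in mesenteric fat, where 7 fell. Of all features 13.6% fell in perirenal and 0.5% in mesenteric fat. The median difference of -0.03 turned to 0.12 under median scaling. Elovl6, which elongates palmitate, read 12.21, 12.6 and 13.79 and then 9.98, 10.45 and 10.71 in perirenal fat, and 11.59, 11.86 and 12.65 and then 9.22, 9.9 and 10.26 in mesenteric fat. The groups were apart in both depots. Its difference was -0.19 ± 0.33, with a 95% interval from -0.87 to 0.49 (limma adjusted p = 0.879).

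Acacb, the acetyl-CoA carboxylase at mitochondria, differed by -0.37 ± 0.25 (interval -0.89 to 0.14). Thrsp, a nuclear cofactor of lipogenesis, fell by 2.91 ± 0.17 in perirenal and by 1.9 ± 0.25 in mesenteric fat, and its difference of -1.01 ± 0.31 missed the threshold (interval -1.66 to -0.36, limma adjusted p = 0.058). Cyp2e1, an ethanol-oxidising cytochrome P450, fell by 3.07 ± 0.26 and 2.92 ± 0.28, with a difference of -0.14 ± 0.41 (interval -0.99 to 0.7). For Cyp2e1 and Elovl6 the groups were apart in both depots, and the intervals of the difference hold values on either side of 0. Cyp2e1 read 15.27 to 15.82 in perirenal and 13.85 to 15.75 in mesenteric fat on the standard diet, close to the top of the scale, so both falls may be understated and the difference does not show equal effects. None of 14 genes of cholesterol synthesis and uptake was called as different (median 0.13).

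Several genes of glucose handling fell by more in perirenal fat. Of 19 insulin and glucose genes 3 had a lower effect there, against 1.49% of all features, and none a higher one (median difference -0.24). Slc2a4, the insulin-regulated glucose transporter GLUT4, read 10.66, 11.08 and 11.33 on the standard diet and 9.32, 9.62 and 10 on the high-fat diet in perirenal fat. In mesenteric fat it read 8.52, 8.97 and 9.6, against 8.03, 8.67 and 9.02. Only the perirenal groups were apart, and the difference was -0.98 ± 0.23 (limma adjusted p = 0.0104). Irs1, which relays the insulin signal, fell in both depots, by 1.4 ± 0.16 and by 0.6 ± 0.1, a difference of -0.8 ± 0.19 (adjusted p = 0.0126). Gys1, glycogen synthase, differed by -0.78 ± 0.21 (adjusted p = 0.0287), and was not called without any 1 of perirenal standard-diet replicates 3 and 4, perirenal high-fat replicate 3 or mesenteric standard-diet replicate 3. None of the 3 was called under median scaling or with the dim-array term. Slc2a4 was at -0.87 (limma adjusted p = 0.889) under the former and at -0.66 (adjusted p = 0.585) with the latter.

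Among adipokines and related genes 3 of 10 had a lower effect in perirenal fat, against 1.49% of all features. Lep, the adipocyte hormone leptin, rose in both depots. It read 14.72 to 15.55 and 15.09 to 15.64 in perirenal fat, where the groups overlapped, and 11.71 to 13.43 and 13.57 to 14.41 in mesenteric fat, where they did not. The perirenal effect was 0.46 ± 0.14, the mesenteric effect 1.49 ± 0.25 and the difference -1.04 ± 0.3 (limma adjusted p = 0.0386). The perirenal values lie close to the highest value of 15.98, where a rise may be compressed, so the difference does not show a smaller perirenal rise. That call was lost when any 1 of 12 arrays was left out: perirenal standard-diet replicates 1, 5 and 6, perirenal high-fat replicates 1, 2 and 5, mesenteric standard-diet replicates 2, 3 and 6, and mesenteric high-fat replicates 3, 4 and 5. It was also lost in the authors' deposited values, and the perirenal rise was lost without any 1 of 8 perirenal arrays.

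Nnat, the imprinted neuronatin, read 11.87 to 13.08 and 11.65 to 12.61 in perirenal fat and 9.15 to 10.88 and 10.38 to 11.89 in mesenteric fat. All of these groups overlapped by diet, and neither depot's effect was called (-0.49 ± 0.2 and 1.18 ± 0.33), but their difference was (-1.67 ± 0.41, limma adjusted p = 0.0123). Sfrp5, a secreted Wnt antagonist, showed the same pattern, with effects of -0.59 and 0.93 and a difference of -1.52 ± 0.37 (adjusted p = 0.0131). Mest, an imprinted gene that follows adipocyte enlargement in mice, rose by 0.78 ± 0.21 and 1.81 ± 0.23, and its difference of -1.03 ± 0.33 was not called (adjusted p = 0.0691). Ucp1, the uncoupling protein of thermogenic fat, rose by 1.16 ± 0.28 and 2.09 ± 0.21 (difference -0.93 ± 0.37, adjusted p = 0.176). The Nnat and Sfrp5 calls were lost once the dim-array term was added (-0.82 and -0.76) and under median scaling.

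C1qtnf9, an adipocyte-secreted relative of adiponectin, was the 1 feature called in opposite directions. It fell by 0.3 ± 0.09 in perirenal fat, from 11.6 to 11.9 down to 11.12 to 11.53, and rose by 0.69 ± 0.15 in mesenteric fat, from 9.16 to 9.89 up to 9.88 to 10.48. The perirenal groups were apart, and the mesenteric groups overlapped by 1 array. The difference was -0.99 ± 0.17 (limma adjusted p = 0.000536). The mesenteric call (adjusted p = 0.0471) was lost without any 1 of 8 mesenteric arrays, standard-diet replicates 2, 3, 4 and 6 and high-fat replicates 3, 4, 5 and 6. The call of the difference was lost once the dim-array term was added (-0.71) and under median scaling (-0.8).

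Mitochondrial and detoxification lists held 1 or 2 lower calls each, set against 1.49% of all features called lower. They were Ndufa5, a subunit of complex I, among 27 oxidative phosphorylation genes (-0.62 ± 0.12), Ogdh, of the oxoglutarate dehydrogenase complex, among 15 TCA cycle genes (-0.59 ± 0.12), Eci1 among 19 fatty acid oxidation genes (-0.38 ± 0.11) and Gstt1, a glutathione transferase, and Ces1f, a carboxylesterase, among 19 xenobiotic genes (-0.67 ± 0.13 and -0.79 ± 0.23). Within perirenal fat 10 of the 27 oxidative phosphorylation genes fell, against 13.6% of all features. A larger negative difference was that of Eci3, a peroxisomal enoyl-CoA isomerase, which read 8.8 to 9.24 and then 6.98 to 7.47 in perirenal fat, and 7.83 to 8.2 and 7.35 to 8.44 in mesenteric fat. Its difference was -1.7 ± 0.21 (limma adjusted p = 9.58e-06) and was called under every alternative run.

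Others with large negative differences were Asb12, of the SOCS-box family, at -1.66 ± 0.44, the kinase Ripk4 at -1.51 ± 0.29, Fn3k, which repairs glycated proteins, at -1.49 ± 0.35, Vstm2b at -1.24 ± 0.35 and the protease inhibitor Timp4 at -1.24 ± 0.34. On the standard diet Asb12 and Fn3k, like Ndufa5 and Ogdh above, were highest on perirenal arrays with high muscle transcripts, as given below. The Timp4 call was lost without any 1 of perirenal high-fat replicates 3, 5 and 6 or mesenteric standard-diet replicates 3 and 6, and the Vstm2b call without any 1 of 13 arrays. Prr32 rose in mesenteric fat (1.15 ± 0.16) and was not called in perirenal fat (-0.04 ± 0.22), a difference of -1.19 ± 0.29. Among circadian clock genes Nr1d1, a repressor of the clock loop, was the 1 called of 10 (-1.04 ± 0.25), against 1.49% of all features called lower. On the standard diet Nr1d1 was lowest on replicates 1 and 2 in both depots. In triglyceride storage and lipolysis Plin2, which coats lipid droplets, was higher (0.88 ± 0.26) and Mogat1, an acyltransferase, lower (-0.85 ± 0.19) of 20 genes. The Plin2 call was lost without any 1 of 14 arrays, and the Eci1 and Ces1f calls without any 1 of 14 and 17.

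The largest negative differences were in the Reg family, secreted lectins made by pancreas and gut. Of 6 tested, 4 had a lower effect in perirenal fat, against 1.49% of all features, and none a higher one. Reg2 read 6.26 to 6.53 and 6.36 to 6.76 in perirenal fat, at the bottom of the scale on both diets. In mesenteric fat it read 6.33, 10.33 and 11.39 on the standard diet and 13.61, 15.09 and 15.73 on the high-fat diet. The difference of -5.26 ± 0.92 (limma adjusted p = 0.000632) rested on the mesenteric arrays, which spanned the scale from its bottom to near its top. Reg3a, Reg3b and Reg3g differed by -4.32 ± 0.81, -4.41 ± 1.02 and -2.63 ± 0.64, and probes of such close relatives may read each other's transcripts. None of the 4 was called with the dim-array term, and 2 were under median scaling.

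Pancreatic transcripts also varied among mesenteric arrays. Of 16 genes of the exocrine pancreas list 1 was called as different, against 5.98% of all features, with a list median of -2.09. Cpa1, a pancreatic carboxypeptidase, read 6.76 on mesenteric standard-diet replicate 1 and 14.4 to 15.8 on the other mesenteric arrays, and Reg2 read 6.33 on that array and 6.91 on replicate 5. Replicate 1 was low for both Cpa1 and Reg2, while replicate 5 had the highest Reg3a, Reg3b and Reg3g values of its group, at 10.51, 13.6 and 8.05. On standard-diet replicates 2, 3, 4 and 6 Cpa1 was within 15.4 to 15.8, near the top of the scale as on the high-fat arrays, and Reg2 was 9.97 to 11.39. The mean level of the pancreatic list was 7.39 to 15.68 on mesenteric standard-diet arrays, 14.92 to 15.68 on mesenteric high-fat arrays and 7.33 to 8.85 in perirenal fat. Without mesenteric standard-diet replicates 1 and 5 the pancreatic median was -0.38, while 4 of the 6 genes of the Reg family were called with a median of -3.32. The pancreatic call, Amy2a5, is an amylase with near-identical copies. It read 12.49 to 14.32 in perirenal arrays, where Cpa1 read 6.87 to 8.88, so that its probe cannot be assigned to pancreatic tissue there. Ssty1, a multicopy gene of the Y chromosome, differed by -2.28 ± 0.52 on values of 6.19 to 6.99 in perirenal and 6.44 to 11.2 in mesenteric fat. Its highest values were 11.2, 9.93 and 9.33, on mesenteric high-fat replicates 6, 3 and 1. These arrays also had the highest Reg3a values, at 15.31, 14.84 and 14.27. Whether the Ssty1 probe reads that gene alone was not tested.

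Skeletal muscle transcripts varied within perirenal fat. Ckm, muscle creatine kinase, read 15.37, 15.06 and 13.98 on standard-diet replicates 3, 4 and 6, 8.7 to 11.64 on the other standard-diet arrays, and 9.05 to 12.85 on the high-fat arrays. None of 11 muscle genes was called as different (median -1.49). Without perirenal standard-diet replicates 3, 4 and 6 the total of 1027 became 577, with 428 higher and 149 lower of 17183 features. Of the lists, 5 of 15 macrophage, 4 of 7 MHC class II, 6 of 17 cell cycle and 7 of 17 lysosomal genes were then called higher. The calls of Slc2a4 and Irs1 were lost without these 3 arrays. Other genes with lower calls were also highest of their group on some of these arrays. Replicates 3 and 4 read 10.68 and 10.17 for Asb12 (other standard-diet arrays 8.05 to 8.92), 13.19 and 13.15 for Ogdh (12.75 to 12.87) and 11.38 and 11.25 for Gys1 (10.24 to 10.87). Irs1 read 12.38 and 12.64 on replicates 3 and 4 (11.74 to 11.98). Fn3k read 9.3, 9.38 and 8.98 on replicates 3, 4 and 6 (8.05 to 8.48). On the same 3 arrays Ndufa5 read 14.05, 13.86 and 13.95 (13.67 to 13.8) and Egln3 8.99, 9.33 and 9.1 (8.57 to 8.92). Ripk4 and Eci3 did not have this order. Which tissue these transcripts came from was not tested. Fabp3, which carries fatty acids in muscle, read 9.44 to 15.17 in perirenal fat on the standard diet. It rose by 1.65 ± 0.15 in mesenteric fat, and its difference of -1.71 ± 0.97 was not called (interval -3.71 to 0.3). Dbp, a clock output gene, rose by 1.43 ± 0.26 in mesenteric fat, with a difference of -0.82 ± 0.47 (interval -1.79 to 0.14). Standard-diet replicates 1 and 2 were low for Dbp in both depots. They read 10.96 and 11.11 in perirenal fat (others 12.69 to 13.09). In mesenteric fat they read 10.6 and 10.79 (others 11.64 to 12.21).

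Lists of other cell types held few calls, to be set against 4.49% of all features called higher and 1.49% called lower. Ccl5, a T cell chemokine, and Il7r were higher of 8 T and NK cell genes, at 1.08 ± 0.27 and 2.79 ± 0.26, while Cd3d at 0.75 ± 0.26 was not called (limma adjusted p = 0.107). Cd79a, a chain of the B cell receptor complex, was lower (-0.9 ± 0.22) of 11 B cell and lymph node genes, on perirenal values of 7.31 to 7.94 and 6.57 to 7.31 and mesenteric values of 10.56 to 11.19 and 10.88 to 11.66. Flt1, a receptor for vascular endothelial growth factor, was lower (-0.69 ± 0.17) of 11 endothelial genes. Egln3, an oxygen-sensing hydroxylase, was lower (-0.95 ± 0.2) of 8 hypoxia genes. On the standard diet Egln3 was highest on perirenal replicates 3, 4 and 6, which were high in muscle transcripts. Csf3r, the receptor for granulocyte colony-stimulating factor, was the 1 called of 9 neutrophil and mast cell genes, with a difference of 0.69 ± 0.19 (limma adjusted p = 0.0271), and none was called without perirenal high-fat replicate 3, without mesenteric high-fat replicate 5 or with the authors' deposited values. By limma no gene was called in the lists of brown adipocyte, pancreatic islet, intestine, kidney, adrenal, smooth muscle, mesothelium, fibroblast, erythrocyte or liver transcripts, which held 3 to 9 genes tested each.

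**Figure D5:**
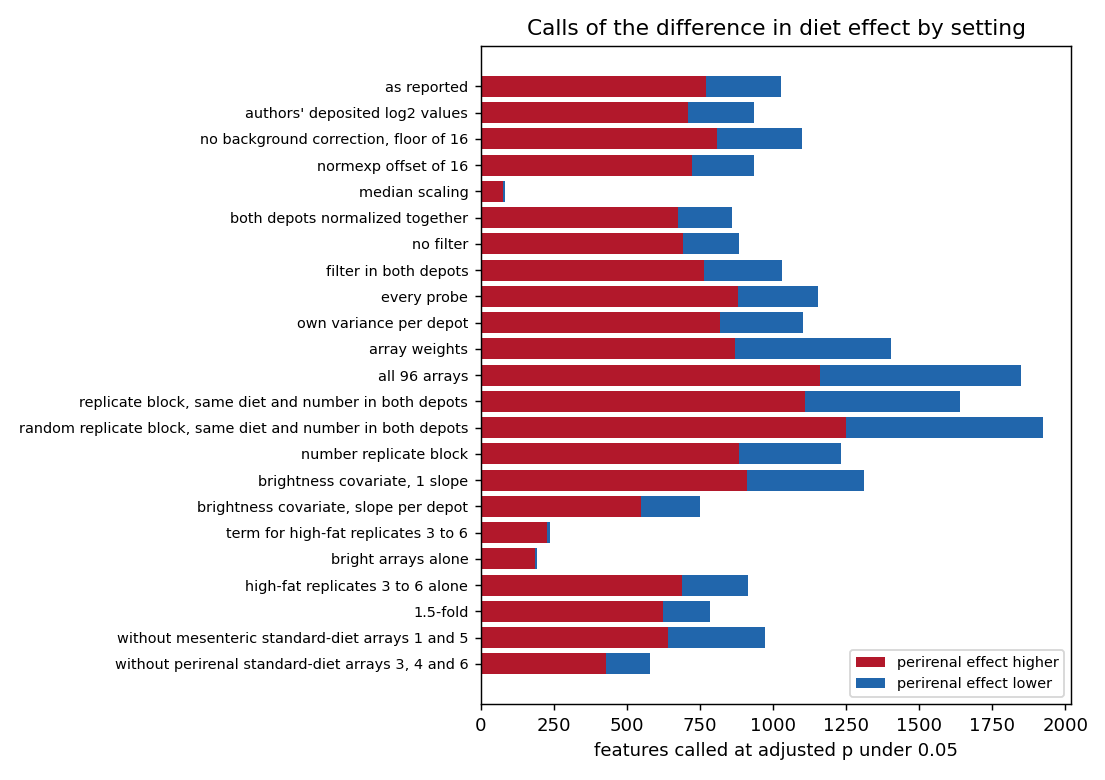
Number of features called at an adjusted p under 0.05 as different between the depots in their diet effect, under the reported setting and 22 alternatives, split into perirenal effect higher (red) and lower (blue). The count runs from 82 under median scaling to 1925 with a random replicate block, and the higher calls outnumber the lower ones in every bar.

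Of the 70 genes tracked over all alternatives that were called, 14 were called under every alternative and without any 1 array. They were Itgad, Rgs1, Il7r, Atf3, Slc37a2, Lcn2, Dhrs9, Glipr1, Cadm1, Itgax, Trem2, Tyrobp and Tk1, all higher, and Eci3, which was lower.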

How the data were processed

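Total RNA of whole tissue was labelled as biotin cRNA and hybridised to Illumina Mouse-6 BeadChips, per the labels' protocols. The deposited table holds probe intensities on a linear scale, not normalized, which ran from 21.55 to 68574.88 over the 24 arrays, with array medians of 128.1 to 227.9. A deposited table of log2 values served as an alternative, and the sources used here do not describe its making. Its sorted values lay within 0.0019 of the mean of sorted log2 intensities. The lowest rank correlation of its values with the intensities was 1. This is the result of quantile normalization without background correction, so the deposited table shares the quantile step of the reported setting. Intensities were corrected by normexp (offset 50), quantile normalized within each depot (12 arrays) and set to log2 in limma 3.58.1 (R 4.3.3). The brightest probe stood for each gene, and the 17183 of 34367 features above the median mean level were tested. The depot-by-diet contrast was fitted over 24 arrays, each depot's effect over its own 12, and p-values were adjusted by Benjamini-Hochberg over all features. Levels across depots used joint normalization. No 2 arrays were duplicates (highest correlation 0.9955). Simulated data gave both diets of a depot that depot's mean, with independent normal noise of the depot's spread. Known differences were then added to perirenal high-fat arrays. Of genes with a difference of 0.5, 29.4% were called, of 1, 80.3%, of 2 (log2), 98.5%, and of unchanged ones 0.035%. The simulation had no dim arrays, no deviations shared between depots, no arrays high in muscle or pancreas transcripts and no normalization. Its rates are therefore not error rates of the real data. Named genes were taken from the 15 largest positive and 15 largest negative called differences, the 4 members of each list with the smallest p, genes called in opposite directions in the depots, and a fixed set of names. The members and lists were chosen with earlier results of these data known. Leaving out mesenteric standard-diet replicates 1 and 5, or perirenal standard-diet replicates 3, 4 and 6, was chosen after seeing the data.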

Additional observations from a re-analysis of the deposited data

Results flagged for a closer look

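A diet effect that differed between the depots was found for 771 features higher and 256 lower in perirenal fat, by the test of the difference itself. C1qtnf9 was called in opposite directions in the 2 depots, with a difference of -0.99. In 23 of 340 groups of 6 arrays examined (6.76%), 1 array stood apart from the other 5 of its group; chance gives about 1 in 20.

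On mesenteric standard-diet replicate 1, log2 intensity was 6.76 for Cpa1 (others 14.4 to 15.8), 7.02 for Prss1 (13.7 to 15.7), 12.57 for Amy2a5 (14.9 to 15.8) and 7.58 for Asb12 (6.68 to 7.01). Replicate 3 of that group had Slc37a2 at 9.98, replicate 5 had Reg3g at 8.05 and replicate 6 had Ucp1 at 11.54. On perirenal standard-diet arrays, replicate 5 had Itgad at 7.99 and Timp1 at 10.79, replicate 3 had Cadm1 at 9.59, replicate 4 had Mest at 12.4 and replicate 2 had Lipe at 12.92. On perirenal high-fat arrays, replicate 5 had Gpnmb at 11.88 and C1qtnf9 at 11.12, replicate 2 had Lipe at 11.87 and replicate 4 had Tgfb1 at 9.76. On mesenteric high-fat arrays, replicate 6 had Gys1 at 8.38, Vstm2b at 7.79 and Ces1f at 7.4, replicate 4 had Ucp1 at 13.59 and Prss1 at 14.72, replicate 5 had Gstt1 at 10.38 and replicate 3 had Acacb at 10.74.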

How the results depend on the processing

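The count of features that differed between the depots, 1027, lay within 1.5 times of itself under the authors' deposited values, other background settings, joint normalization, other filters, array weights and brightness covariates. The deposited values match quantile normalization as well, so they do not test that step. The count was 82 under median scaling, 1850 with all 96 arrays in the fit, 237 with a term for high-fat replicates 3 to 6, 193 with the bright arrays alone and 577 without perirenal standard-diet replicates 3, 4 and 6. Without single arrays it was 829 to 1124. The share of higher calls, 75.1%, became 90.2% under median scaling, 61.9% with array weights, 62.6% with all 96 arrays, 95.4% with the term for the dim arrays and 95.9% with the bright arrays alone. With a replicate block of the same diet and number in both depots the count was 1640, and with a random replicate block 1925. The reported fit did not pair samples by replicate number, because the labels do not say which arrays came from 1 animal. Same-numbered deviations in the 2 depots did correlate, at 0.067 to 0.547, with 11 of 12 over 0.1. Of the 12, 7 correlated best with their own number, and the random block used a correlation of 0.32. The reported standard errors leave out such a link, and whether the numbers mark animals was not tested. Of the 237 calls 234 were among the 1027.

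Within perirenal fat the 4693 calls became 951 under median scaling, 1303 with the dim-array term, 926 with the bright arrays alone and 3549 to 5296 without single arrays. Within mesenteric fat the 143 calls became 2 under median scaling, 62 with a brightness covariate, 860 with high-fat replicates 3 to 6 alone, 380 with 1 variance for both depots and 15 with a number replicate block. By limma there were 0 with the dim-array term (736 at an unadjusted p under 0.05) and 0 with the bright arrays alone (769). Without single arrays the mesenteric count was 60 to 162, and it fell by over 1.5 times without any 1 of standard-diet replicates 2, 3, 4 and 6 or high-fat replicates 3, 5 and 6. Leaving out arrays also leaves fewer samples; otherwise the cause was not tested. Under median scaling some list medians changed sign, among them the differences of the interferon (-0.05 to 0.09) and fatty acid synthesis lists (-0.03 to 0.12) and the mesenteric macrophage median (0.17 to -0.29). Of 40 higher calls among the genes named, 28 were also called with the dim-array term, and of 30 lower calls 2. That term leaves each high-fat mean to replicates 1 and 2. With high-fat replicates 3 to 6 alone, 8 of these 70 calls were lost.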
